A study of Mus musculus with 40 samples.

Results

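Oxidative phosphorylation is carried out by 5 complexes of the inner mitochondrial membrane, and the genes described here are those of the nucleus that encode their parts. They were picked by symbol from the counted genes of mouse hypothalamus: symbols starting with Ndufa, Ndufb, Ndufc, Ndufs, Ndufv, Uqcr, Atp5, Cox4, Cox5, Cox6, Cox7 or Cox8, together with Sdha, Sdhb, Sdhc, Sdhd and Cyc1, leaving out pseudogene names. The rule found 93 of 23955 genes. By their known roles 36 belong to complex I, 4 to complex II, 9 to complex III, 20 to complex IV and 15 to complex V. The remaining 9 (Ndufaf1 to Ndufaf7, Atp5s and Atp5sl) are assembly or accessory factors that the symbol rule takes in although they are not subunits. Ndufa4 and Ndufa4l2 carry a complex I name and were placed with complex IV, where the protein is now known to belong. Cox7a2l, whose protein joins complexes III and IV, was also counted with complex IV.

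The RNA came from the hypothalamus of 40 mouse strains with 1 library per strain. Of these, 36 were BXD recombinant inbred lines, which are inbred descendants of a cross between C57BL/6J and DBA/2J and so carry fixed mixtures of the parental genomes. The other 4 were both parents and the reciprocal hybrids B6D2F1 and D2B6F1. RNA of 3 to 6 animals was pooled for each BXD line, and the labels name no treatment, sex or age. A line was therefore measured once, the spread given below is the spread over lines, and genetic, technical and pool differences within it cannot be told apart.

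Complexes I and II pass electrons from NADH and succinate to ubiquinone, complex III passes them on to cytochrome c, and complex IV hands them to oxygen. Complexes I, III and IV pump protons, and complex V, the ATP synthase, uses the gradient to make ATP. Neurons draw on this pathway for most of the ATP that ion pumping and synaptic transmission consume. A few subunits are made from mitochondrial DNA, which was not analysed here. The rest are made in the cytosol from nuclear transcripts, most of them short and abundant, and many of their promoters are known to bind NRF1, GABPA, YY1 or Sp1.

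Promoter sequence was available in RefSeq (assembly GRCm38.p6) for 76 of the 93 genes, as windows from 250 bases before to 50 after the start of the gene. Letters were searched on both strands. The NRF1 core GCGCANGCG occurred in 27.6% of the 76 windows and in 6.47% of all 27025 promoter windows of that length. The ETS/GABPA core CCGGAAG was in 21.1% against 9.12% of all, the YY1 letters AAGATGGCG in 9.21% against 1.49%, the Sp1 letters GGGGCGGGG in 17.1% against 11.6% and the CCAAT box in 44.7% against 37.9%. A match is a run of letters and not a known binding site in this tissue. The 150 bases upstream of the start follow for 3 genes on which the results turn: Ndufb11 and Atp5e, the genes with the smallest p-values in the slopes on ribosomal protein genes, and Sdha, one of the steadiest genes over the lines. All 3 lie on the minus strand, at chrX:20617620-20617769, chr2:174464102-174464251 and chr13:74350241-74350390. Each is written from its most distant base to the base before the start. Capitals mark motif letters on either strand.
Ndufb11: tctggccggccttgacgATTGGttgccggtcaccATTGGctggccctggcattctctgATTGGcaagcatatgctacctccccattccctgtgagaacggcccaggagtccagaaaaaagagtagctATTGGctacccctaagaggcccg
Atp5e: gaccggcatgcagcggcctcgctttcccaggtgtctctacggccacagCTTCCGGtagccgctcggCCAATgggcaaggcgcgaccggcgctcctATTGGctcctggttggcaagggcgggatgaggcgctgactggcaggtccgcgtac
Sdha: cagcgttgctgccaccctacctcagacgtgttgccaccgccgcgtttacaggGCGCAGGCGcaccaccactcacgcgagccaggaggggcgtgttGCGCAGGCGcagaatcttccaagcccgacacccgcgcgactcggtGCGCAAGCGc
Ndufb11 held 4 CCAAT boxes, Atp5e 1 ETS/GABPA core and 2 CCAAT boxes, and Sdha 3 NRF1 cores. No 2 marked matches shared a base.

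Library totals ran from 12.2 M counts (BXD55) to 40.4 M (BXD51). Values are CPM, read counts per M counts of the library, scaled for library composition. The 93 genes held a median of 0.887% of a line's counts, from 0.691% to 1.06%. All 10 marker genes of hypothalamic neurons exceeded a mean of 1 CPM, and their summed level ran from 336 to 843 CPM over the lines. Of the 93 genes, 90 had enough counts to be tested in every comparison, all but Cox8b, Cox8c and Ndufs5, and 80 had a mean of at least 5 CPM. The libraries of 4 lines stood apart for these genes, a choice made after their values were seen. The median deviation of the 80 genes from their own median line was -0.41 log2 units in BXD43, -0.29 in BXD32, -0.19 in BXD44 and 0.25 in BXD51, where over all genes it lay between -0.01 and 0.01. The counts of genes called, the slopes on ribosomal protein genes and Lars2, the median spread and the median rho were recomputed without them, and other values are given over all 36 lines only.

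Complex I takes electrons from NADH through a peripheral arm of flavin and iron-sulfur subunits, and it had the longest list. Ndufs1, which carries iron-sulfur clusters, had a mean of 163 ± 10.5 CPM (SD, n = 36 lines) and the flavin subunit Ndufv1 144 ± 14.1. Levels between genes were compared only per length, as CPM per kb of exon. The length is that of all annotated exons of a gene together, for example 4387 bases for Ndufab1 and 4912 for Atp5g1. A long annotation lowers the value, and which exons were expressed was not tested. On that scale the accessory subunit Ndufb10 was highest at 126 CPM per kb, the median of the complex was 62.2, and Ndufab1, the mitochondrial acyl carrier protein, was lowest among the subunits with at least 1 CPM at 1.18. Ndufs5 had 1 read in all 40 libraries together, and 19.8% of its 100-base windows also occur in a pseudogene.

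Complex II is also the succinate dehydrogenase of the citric acid cycle. Its flavoprotein Sdha was at 596 ± 21.1 CPM over the lines, its iron-sulfur subunit Sdhb at 107 ± 11.2, and its membrane anchors Sdhc and Sdhd at 77.6 ± 13.4 and 86.2 ± 4.42. Per length the order was Sdha with 206 CPM per kb, Sdhb with 94.1, Sdhd with 69.99 and Sdhc with 24.5. Sdha ranged only from 552 CPM in BXD90 to 654 in BXD32. Sdhc ranged from 50.4 CPM in BXD43 to 101 in BXD51, around a median of 81.8, so subunits of one complex did not keep a fixed ratio over the lines.

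Complex III holds cytochrome c1 (Cyc1), the Rieske iron-sulfur protein (Uqcrfs1) and a pair of large core proteins. The core protein Uqcrc2 had 234 ± 6.97 CPM and Uqcrc1 203 ± 23.3, Cyc1 123 ± 14.4 and Uqcrfs1 97.4 ± 6.25. Per length the hinge protein Uqcrh was highest at 246 CPM per kb and Uqcrq lowest at 29.2.

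Complex IV, cytochrome c oxidase, is the complex with tissue isoforms. Per length, the forms common to most tissues prevailed. Cox4i1 led the complex with 423 CPM per kb, and its hypoxia-linked partner Cox4i2 had 1.17. Cox6a1 had 220 CPM per kb against 3.26 for the heart and muscle form Cox6a2, and Cox6b1 had 239 against 3.15 for the testis form Cox6b2. Cox7a2 had 132 CPM per kb against 1.85 for the muscle form Cox7a1, and Cox8a had 234 against 0.207 for the muscle form Cox8b. Ndufa4 had 242 CPM per kb and its relative Ndufa4l2, the lowest gene of the complex with at least 1 CPM, had 2.19. On the CPM scale Cox8b had a median of 0.0444 over the lines, and Cox8c had 1 read in all 40 libraries. In libraries of this depth 3 counts correspond to 0.0743 to 0.245 CPM, so Cox8b was under that floor in the median line and Cox8c in every line. Summed over 7 genes, the skeletal and heart muscle markers ran from 11.9 to 24.6 CPM in the lines. Whether the muscle forms came from muscle cells was not tested.

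In complex V the catalytic subunit Atp5b had 1065 ± 98.1 CPM and Atp5a1, its partner in the catalytic head, 908 ± 59.0. Atp5b had the highest level per length of the 92 genes with a reference length, at 556 CPM per kb, and Atp5g2 the lowest of complex V at 1.98. Atp5g1, Atp5g2 and Atp5g3 encode the same mature proton-carrying ring subunit, and Atp5g3 was the highest of them per length, with 274 CPM per kb against 3.73 for Atp5g1 and 1.98 for Atp5g2. Among the assembly and accessory factors Ndufaf5, a complex I assembly factor, was highest per length at 30.6 CPM per kb and Ndufaf6 lowest at 7.11.

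**Figure D1:**
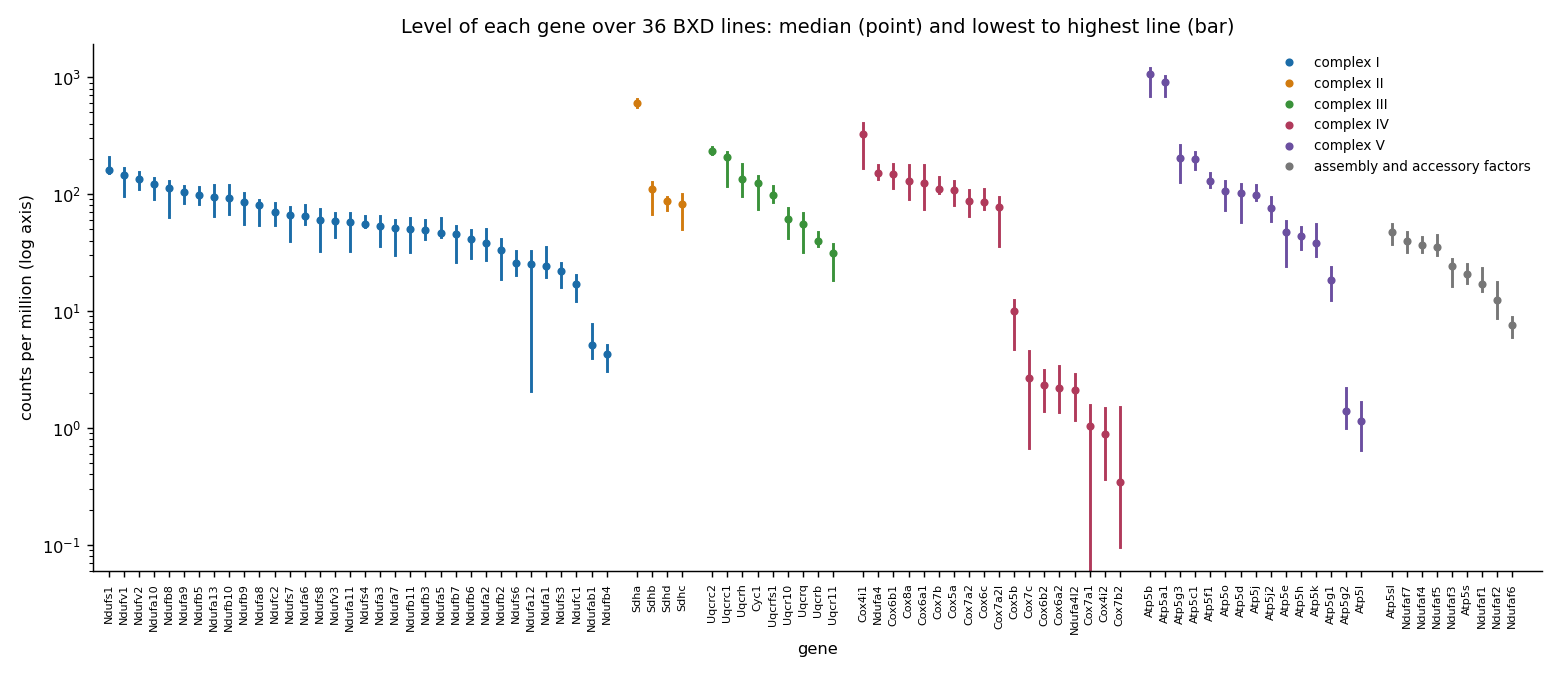
CPM on a log axis for the tested genes but 1, grouped by complex; the point is the median of the 36 BXD lines and the bar runs from the lowest to the highest line. Atp5b and Atp5a1 are the highest, the bar of Ndufa12 is the longest among genes above 5 CPM, and the bar of Cox7a1 runs off the axis because its lowest line had 0 CPM.

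Near-identical copies elsewhere in the genome limit what counts can say about some of these genes. For 92 genes with a transcript in a GENCODE annotation of GRCm38, every 100-base window, the length of a read, was looked for in the transcripts of other genes. Atp5l shared 61.3% of its windows with 5 pseudogenes and was counted at 1.15 ± 0.27 CPM. The shared part was 33.4% in Ndufb4, 29.5% in Atp5h, 19.9% in Ndufs3, 19.8% in Ndufs5, 19.7% in Cox7c, 17.7% in Ndufa12, 17% in Ndufb9 and 15.8% in Uqcrb, and 9.90% in Cox7a2l and 8.09% in Cox5b. How the authors' counting treated such reads is not given in the sources used here, so the levels of these genes are uncertain, and the part of shared sequence in them was not tested.

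**Figure D2:**
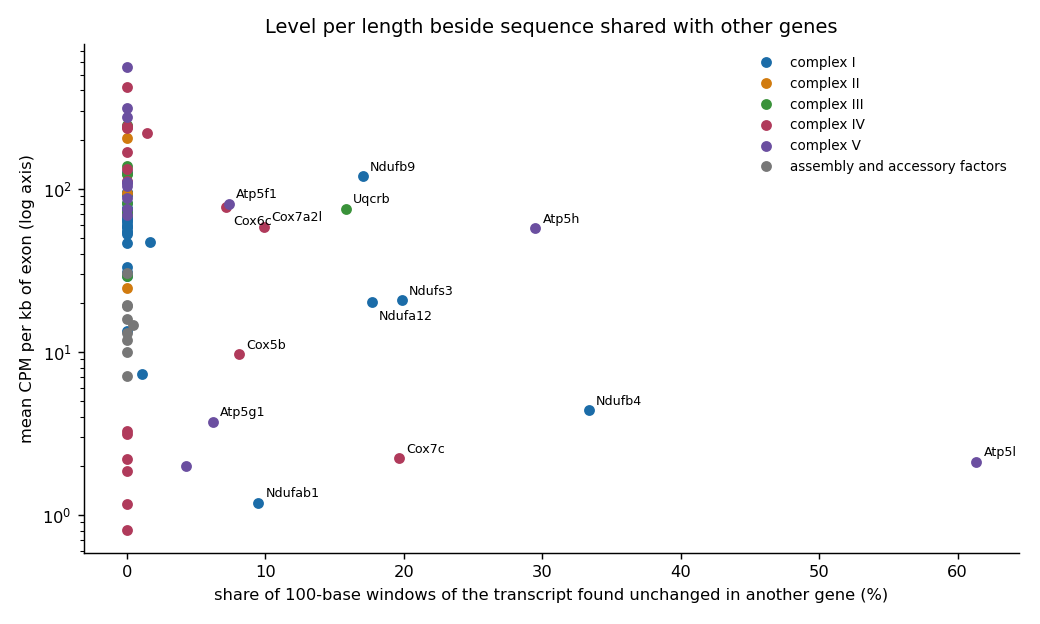
Mean CPM per kb of exon on a log axis against the share of a transcript's 100-base windows that occur unchanged in another gene, 1 point per gene coloured by complex with 1 gene left out. Most genes sit at 0%, Atp5l sits at 61.3% with a level of 2.11 CPM per kb, and Atp5h at 29.5% with 57.

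The median coefficient of variation over the lines was 10.7% for the 80 genes of at least 5 CPM, against 9.26% for all 12015 such genes. Without BXD32, BXD43, BXD44 and BXD51 it was 7.23% against 8.03%. The biological coefficient of variation, the spread left after counting error, had a median of 0.111 over 89 of the genes and 0.0997 over all 14996 genes, and 53 of the 89 lay above that median of all genes. Leaving out those 4 lines, 35 of 89 did. The steadiest were the core protein Uqcrc2 (0.041), Sdha (0.045), the complex I subunit Ndufs4 (0.052), the complex II anchor Sdhd (0.056) and Atp5f1 of the ATP synthase stalk (0.062). Uqcrc2 ranged from 219 to 252 CPM and lay in the lowest 0.053% of all genes for this measure. The most variable were Ndufa12 (0.586), Cox7a2l (0.348), Cox5b (0.260), Uqcrq, Ndufaf2, Ndufb2, Cox8a, Cox6a1, Sdhc and Atp5d (0.166). With those lines left out, 9 of these 10 were again the most variable, and 3 of the 5 steadiest, Uqcrc2, Sdha and Sdhd, were again the steadiest.

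Ndufa12, an accessory subunit of complex I on chromosome 10, had a spread above 99.5% of all genes. In 5 lines it was nearly missing: 2.08 CPM in BXD45, 2.14 in BXD95, 2.19 in BXD89, 3.5 in BXD32 and 4.68 in BXD61. The other 31 lines ran from 18.5 to 32.5 CPM, so that no line lay in the 1.97 log2 units between. The parents had 20.7 CPM (C57BL/6J) and 7.67 CPM (DBA/2J), and the hybrids lay between them with 15.7 (B6D2F1) and 14.5 (D2B6F1). All 5 low lines were thus below DBA/2J. The genes whose levels followed it most closely over the 36 lines were Usp37 (Spearman's rho -0.79), Dusp11 (-0.78) and Mrp63 (0.75), none of them on its chromosome.

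Cox7a2l, on chromosome 17, encodes a protein that joins complexes III and IV into supercomplexes, and C57BL/6 mice are known to carry a variant form of it. The lines fell into 16 between 36.2 and 48.2 CPM and 20 between 67.0 and 94.9, with a step of 0.48 log2 units and no line inside it. C57BL/6J had 76.7 CPM and lay with the high lines, DBA/2J had 51.1 and lay just above the low ones, and the hybrids had 64.9 and 67.4. The 3 genes nearest to it in pattern were Fez2 (rho 0.66), Thada (-0.65) and Mcfd2 (0.63), all on chromosome 17. Line genotypes were not used here.

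Cox5b, a zinc-binding subunit of complex IV on chromosome 1, parted the lines by a step of 0.34 log2 units, with 15 lines from 4.72 to 7.29 CPM and 21 from 9.24 to 12.5. C57BL/6J had 8.87 CPM, DBA/2J 6.27, B6D2F1 8.85 and D2B6F1 7.41. Its nearest genes were Rbbp8 (-0.79), Inpp4a (-0.73) and Nup98 (-0.72), of which Inpp4a is on the same chromosome. A step of 1 log2 unit or more was counted as a gap where 6 or more lines lay on either side of it. By that rule 0 of 87 of these genes had a gap, against 0.476% of all 14487 genes, and Ndufa12 missed it only because 5 lines lay below its step. These patterns are descriptions of single libraries with no test.

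Uqcrq, the ubiquinone-binding subunit of complex III, ran from 32 CPM in BXD43 through a median of 55.7 to 68.4 in BXD51. Its widest step, 0.30 log2 units, parted 4 lines up to 34.2 CPM from the other lines, which began at 42.0. Its nearest genes were Cox14 (rho 0.89), a complex IV assembly factor, Grcc10 (0.89) and Mlf2 (0.89). Ndufaf2, a complex I assembly factor, ran from 8.74 CPM in BXD90 to 17.8 in BXD51 around a median of 12.5. Its nearest genes were Cabin1 (-0.71), Ppp6r2 (-0.67) and the circadian repressor Cry2 (-0.66). Ndufb2 of complex I ran from 18.9 to 41.3 CPM, and Cox8a and Cox6a1 of complex IV from 90.9 to 177 and from 74.7 to 178.

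**Figure D3:**
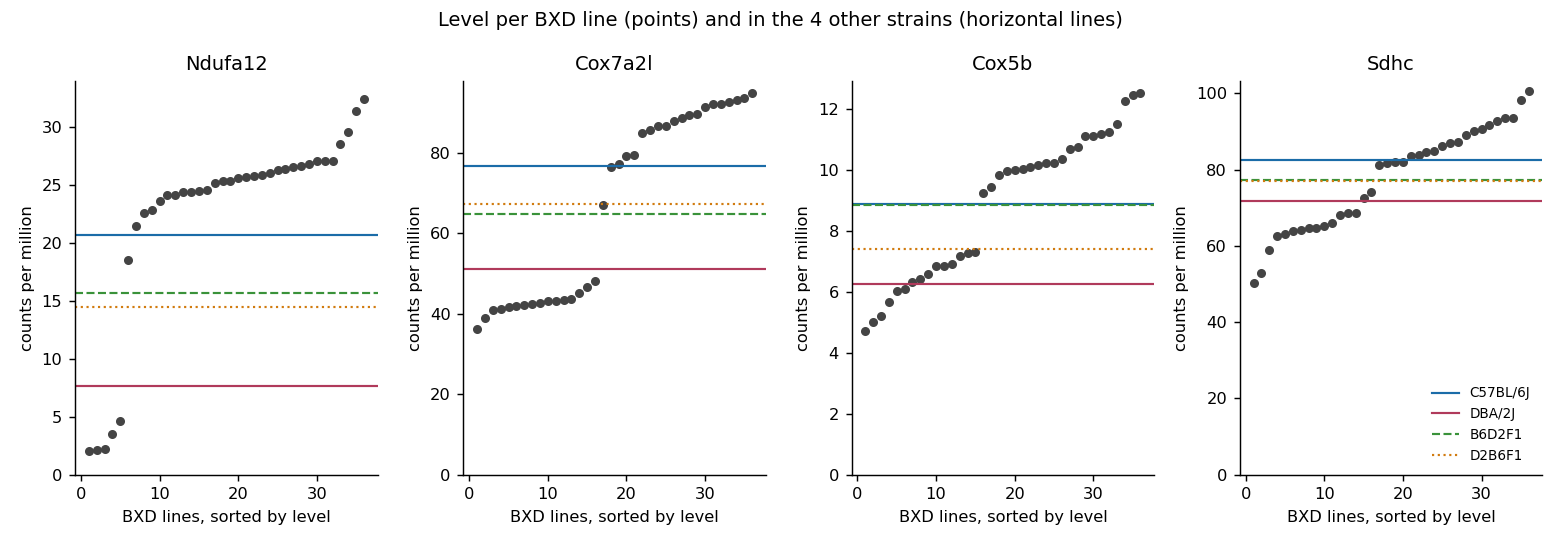
CPM in each of the 36 BXD lines, sorted by level within each gene, for Ndufa12, Cox7a2l, Cox5b and Sdhc, with the 4 other strains as horizontal lines. Ndufa12 shows 5 lines under 4.68 CPM and the rest from 18.5 CPM, and Cox7a2l shows 16 lines up to 48.2 CPM and 20 from 67.0 CPM.

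Summed by complex, the levels over the lines were 2380 ± 165 CPM for complex I, 868 ± 31.4 for complex II, 977 ± 71.3 for complex III, 1357 ± 114 for complex IV, 3026 ± 219 for complex V and 241 ± 9.85 for the assembly and accessory factors. BXD43 was lowest in all 5 complexes and BXD51 highest in all 5. The sum in BXD43 was 72.9% of the median line for complex V, 75.0% for complex III, 76.8% for complex I and 77.0% for complex IV, but 92.6% for complex II. BXD32 and BXD44 came next in complexes I, III, IV and V. Of the 80 genes of at least 5 CPM, 46 had their lowest line in BXD43 and 52 their highest in BXD51. The 4 parental and hybrid strains lay close to the median line, for example with 2380 to 2406 CPM for complex I. In bulk tissue fewer cells of a type and less RNA per cell cannot be told apart.

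**Figure D4:**
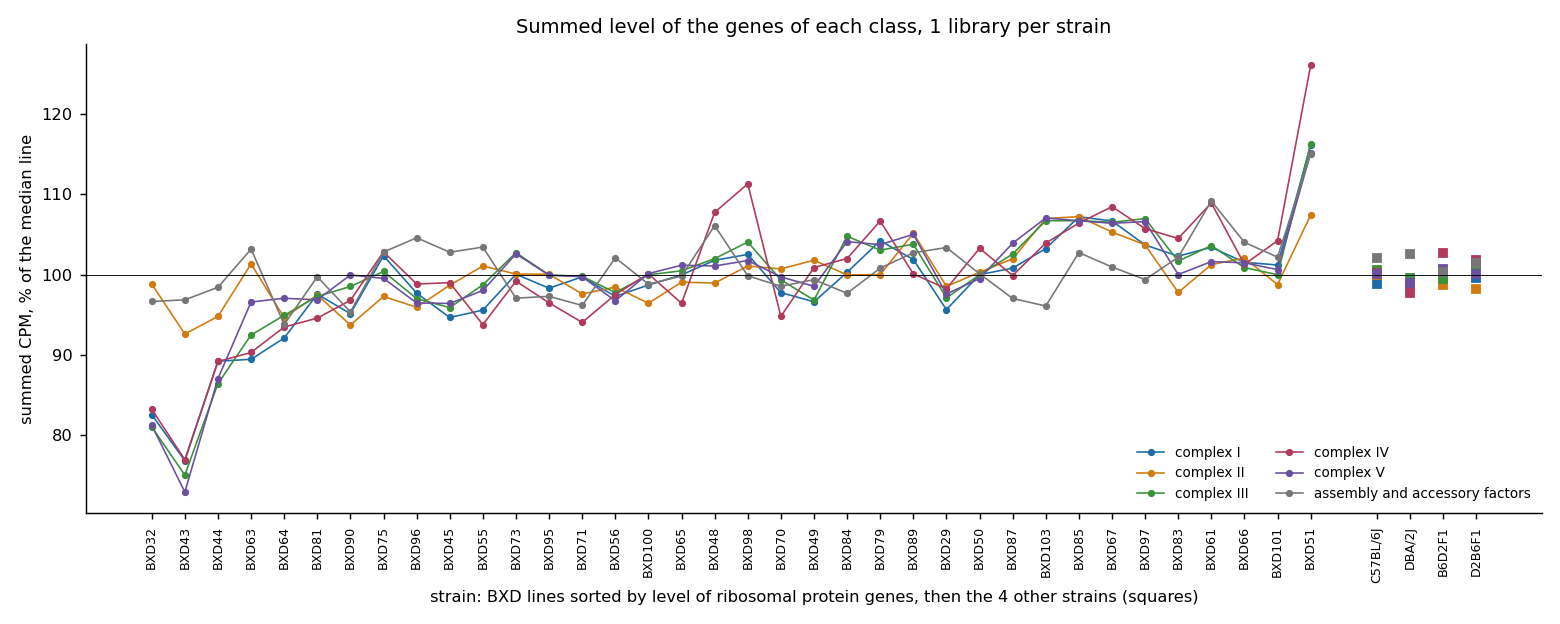
Summed CPM of each complex as a percentage of its median over the BXD lines, for 36 BXD lines sorted by their level of ribosomal protein genes and then the 4 other strains as squares. The lines on the left, BXD32, BXD43 and BXD44, are low in complexes I, III, IV and V, where BXD43 falls to 72.9% in complex V, and BXD51 on the right is high in all, up to 126% in complex IV.

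The genes moved together over the lines. Spearman's rho over the 36 lines had a median of 0.34 over the 3160 pairs of the 80 genes, and 29.7% of pairs exceeded 0.5, against a median of 0.0003 and 4.41% over all pairs of genes of at least 5 CPM. With the assembly and accessory factors taken as a class beside the 5 complexes, the median was 0.41 within a class and 0.33 between classes. The closest pairs crossed complexes: Atp5d of complex V with Cox8a of complex IV (0.92), and Cox4i1 of complex IV with Ndufa13 of complex I (0.91). Ndufa13 had the highest median rho with the others (0.59). Ndufaf4, a complex I assembly factor, had the lowest (-0.24), followed by Ndufs1 (-0.14). These medians are weak, and each gene had a positive rho with its closest member, Ndufaf4 with Atp5s (0.48) and Ndufs1 with Sdha (0.53). All pairs share the same 36 libraries, and without the 4 libraries that stood apart the median rho was 0.24.

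The shared course was set against that of another group of short abundant transcripts, 37 genes of the cytosolic ribosome, whose mean log2 CPM entered edgeR's quasi-likelihood test as a slope over the 36 lines, with Benjamini-Hochberg adjustment over all genes tested. A slope of 1 means that a gene changed by the same factor as the ribosomal protein genes. Their mean ran only from 5.06 log2 CPM (BXD32) to 5.79 (BXD51), so it did not double over the lines. Without the 4 lines that stood apart it ran from 5.35 (BXD63) to 5.68 (BXD101). Slopes per log2 unit are thus larger than the changes seen. Of the 90 tested genes 64 rose with the ribosomal protein genes, where 22.2% of all 16216 genes did, and 2 fell, where 23.2% of all did. The median slope was 0.74 for the 90 genes and -0.02 for all genes. By complex, 28 of 35 genes rose in complex I, 3 of 4 in complex II, 7 of 9 in complex III, 12 of 18 in complex IV, 11 of 15 in complex V and 3 of the 9 assembly and accessory factors. These shares were not tested against each other.

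The smallest p-values belonged to Ndufb11, Atp5e, Atp5g3, Cox4i1 and Ndufs8. Ndufb11, an X-linked accessory subunit of complex I, had 31.7 CPM in BXD43, a median of 50.3 and 62.3 in BXD51, and its slope was 1.31 ± 0.093 (SE, edgeR adjusted p = 2.4e-13). Atp5e, the epsilon subunit of the ATP synthase, had 24.1 CPM in BXD43, 26.1 in BXD32, a median of 47.1 and 59.0 in BXD51, with a slope of 1.71 ± 0.13 (edgeR adjusted p = 6.4e-13). BXD43 and BXD32 were the lowest lines for both genes and BXD51 the highest. Cox4i1 ran from 169 CPM in BXD43 and 192 in BXD32 to 407 in BXD51, with a slope of 1.47 ± 0.14. The slope was 1.2 ± 0.10 for the ring subunit Atp5g3 and 1.43 ± 0.14 for the iron-sulfur subunit Ndufs8.

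In complex II, Sdhb rose with a slope of 1.07 ± 0.11, Sdhc with 1.25 ± 0.25 and Sdhd with 0.38 ± 0.075, while Sdha had -0.09 ± 0.070 (edgeR adjusted p = 0.29). Without the 4 lines that stood apart none of them passed: Sdhb had 0.50 (edgeR adjusted p = 0.055), Sdhc 0.80, Sdhd 0.18 and Sdha 0.18, so that the sign of Sdha turned. The 2 genes that fell were Ndufs1 (-0.44 ± 0.089, edgeR adjusted p = 8.9e-05) and Cox7b of complex IV (-0.33 ± 0.10, edgeR adjusted p = 0.0091). Ndufs1 was highest in BXD32 with 207 CPM and BXD43 with 191, around a median of 162. These are 2 of the 3 lines with the lowest complex I sums, so Ndufs1 was high where the sum of its complex was low.

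**Figure D5:**
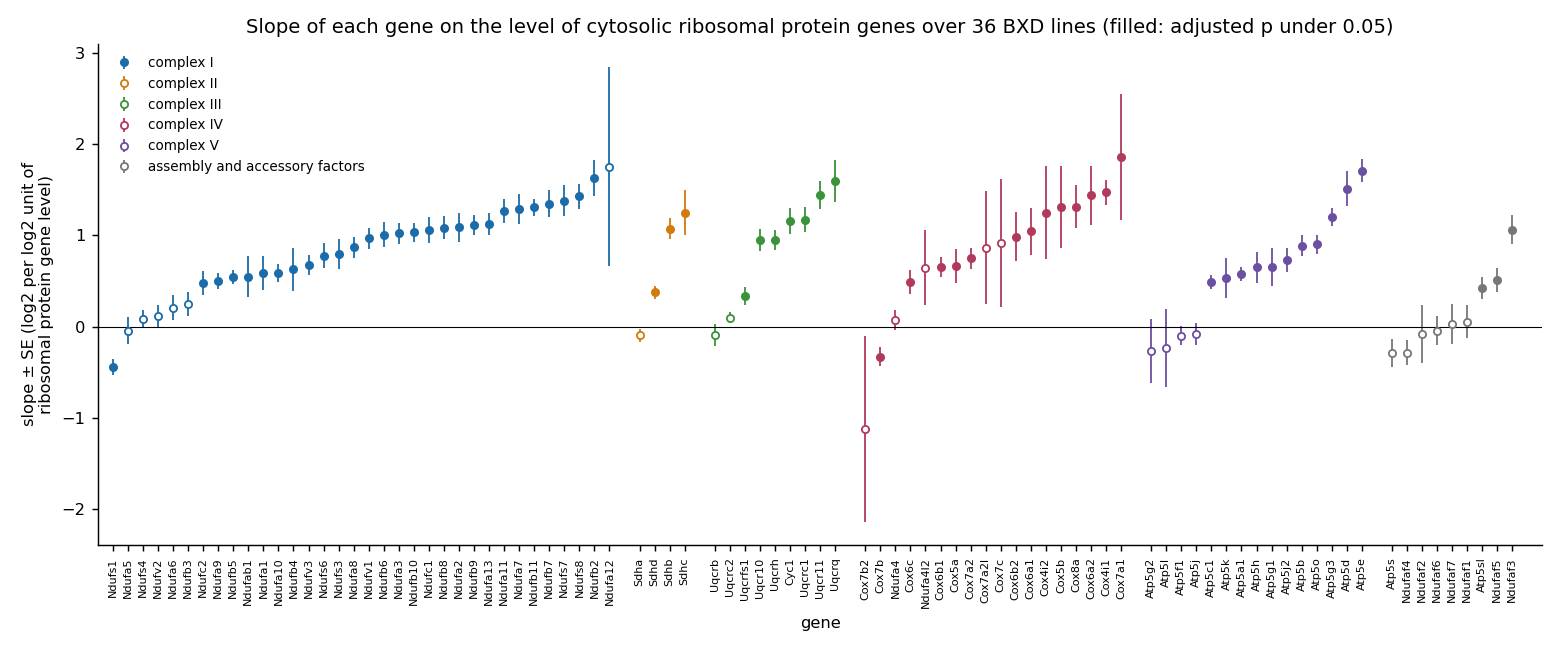
Slope of the tested genes but 1 on the mean log2 level of 37 cytosolic ribosomal protein genes over the 36 BXD lines, with its standard error; filled points passed an edgeR adjusted p of 0.05. Most points are filled above 0, and those of Ndufs1 and Cox7b are filled below 0.

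The count depended on the libraries that stood apart. Without BXD32, BXD43, BXD44 and BXD51, 29 of 90 genes rose with the ribosomal protein genes, where 9.60% of all genes did, and 28 of the 29 were among the 64. None of the 90 fell, where 11.7% of all did, and the median slope of the 90 was 0.58. By complex, 17 of 35 rose in complex I, 0 of 4 in complex II, 4 of 9 in complex III, 2 of 18 in complex IV, 5 of 15 in complex V and 1 of the 9 assembly and accessory factors. Ndufb11 (1.12), Atp5e (1.29), Atp5g3 (1.14) and Ndufs8 (0.76) still passed, and Cox4i1 did not (slope 0.47, edgeR adjusted p = 0.056). Neither Ndufs1 (-0.17, adjusted p = 0.45) nor Cox7b (-0.08, adjusted p = 0.78) passed in edgeR without them. Over genes, the slope followed the GC content of the transcript, with a Spearman's rho of 0.56 over 89 of these genes and 0.62 over all 16031 with a reference transcript, and its rho with length was -0.19 and -0.45. After leaving out the 4 lines, the rho with GC content was 0.24 over 89 of these genes and 0.48 over all, and with length -0.47 and -0.40. In transcripts of up to 1000 bases 74.5% of 47 of these genes rose, against 38.7% of all genes of that length. Over 2000 bases 66.7% of 12 rose, against 17% of all. Without the 4 lines the shares were 40.4% against 21.7% up to 1000 bases and 8.33% against 6.62% over 2000. Genes are the points of these rho and are not independent of each other, and the part of base composition or length in the slopes was not tested.

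Marker genes of other cell types differed in the same libraries. BXD32 had the highest sum of the choroid plexus markers (892 CPM, median 50.3), of the oligodendrocyte markers (8028, median 5156) and of the neuronal markers (6257, median 5288), and the lowest of the microglial (227, median 293) and striatal markers (39.5, median 68.7). BXD43 had the lowest oligodendrocyte sum (4033 CPM) and the lowest sum of muscle markers (11.9 CPM). In BXD44 and BXD51 none of the 12 marker sums was the lowest or highest of the lines. The hypothalamic neuron sum was 377 CPM in BXD32, 467 in BXD43, 552 in BXD44 and 673 in BXD51 (median 542). The astrocyte sum was 3871 CPM in BXD32, 3926 in BXD43, 3445 in BXD44 and 3090 in BXD51 (median 3521). Over the lines these sums ran from 336 to 843 and from 2971 to 4068 CPM. BXD51 also had a low muscle sum (12.2 CPM, median 19.2), and BXD43 a high thalamic sum (546, median 455). As slopes on the ribosomal protein genes, 6 of 10 hypothalamic neuron markers rose and 0 fell in edgeR, 1 of 6 astrocyte markers rose and 4 fell, 2 of 10 oligodendrocyte markers rose and 2 fell, and 3 of 5 choroid plexus markers fell. Of 7 general neuronal markers 2 rose and 3 fell, of 6 microglial markers 3 rose and 0 fell, of 8 pericyte and smooth muscle markers 1 rose and 2 fell, and of 5 endothelial markers 1 rose and 1 fell. Of 4 thalamic markers 1 fell, of 6 muscle markers 1 rose, and 0 of 5 meningeal and 0 of 4 striatal markers passed. Without the 4 lines that stood apart 7 of 10 hypothalamic neuron markers rose and all 4 striatal markers fell, where 9.60% of all genes rose and 11.7% fell. In that fit 0 choroid plexus and 0 oligodendrocyte markers passed, 1 microglial marker, 1 thalamic and 2 pericyte and smooth muscle markers fell, and 1 rose and 1 fell among the astrocyte and endothelial markers each. Of the general neuronal markers 1 rose and 2 fell, and 0 meningeal and 0 muscle markers passed. No marker found in the table was at 0 in every library. The part of tissue composition in the levels of the oxidative phosphorylation genes was not tested. As a slope on 10 myelin genes, edgeR called 0 of the 90 genes and DESeq2 0, where edgeR called 1.15% of all genes. At an unadjusted p under 0.05 there were 8, where 9.68% of all genes were. Without BXD32 edgeR called 7, all higher. The 1.15% does not apply to that fit, and its share of all genes is not given here. The 7 can therefore not be read as particular to these genes.

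The promoters of the genes that rose were read by the same motif search. Among the 53 with a window, 26.4% held the NRF1 core and 26.4% the ETS/GABPA core. Among the 21 tested genes that did not rise and had a window the shares were 28.6% and 9.52%. These became 26.9% and 34.6% among 26 genes that rose, and 27.1% and 14.6% among 48 that did not, when the 4 lines were left out. Over all lines the Sp1 letters were in 15.1% of the genes that rose and 23.8% of those that did not. The CCAAT box was in 47.2% and 42.9%, and the YY1 letters in 11.3% and 4.76%. Without the 4 lines the shares were 19.2% and 16.7% for Sp1 and 46.2% and 45.8% for the CCAAT box. For YY1 they were then 7.69% and 10.4%. Atp5e, shown above, held an ETS/GABPA core and rose, and Sdha, shown with 3 NRF1 cores, did not pass. The shares rest on few genes and are a description.

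Genes of the wider pathway, outside the symbol rule, did not follow one direction, and the counts stand beside 22.2% of all genes rising and 23.2% falling. Of 30 tested assembly and import factors 12 rose with the ribosomal protein genes and 5 fell in edgeR, among them Sdhaf1 of complex II assembly (1.6 ± 0.40) and Cox14 (1.2 ± 0.19) upward and Cox20 (-0.80 ± 0.14) downward. Of 8 carriers 5 rose, for example the mitochondrial creatine kinase Ckmt1 (0.58 ± 0.12), and 0 fell. Of 16 citric acid cycle genes 6 rose, such as the malate dehydrogenase Mdh2 (0.93 ± 0.10), and 6 fell, such as the pyruvate dehydrogenase subunit Pdha1 (-0.51 ± 0.085). Of 14 genes of mitochondrial gene expression and biogenesis 2 rose and 7 fell. Ppargc1a, the coactivator of mitochondrial biogenesis, fell by 1.12 (SE 0.13) per log2 unit. Gabpa (-0.60 ± 0.13) and the mitochondrial transcription factor Tfam (-0.37 ± 0.11) fell too, and Esrra, a nuclear receptor partner of Ppargc1a, rose (0.88 ± 0.22). The factor Nrf1 had 0.12 ± 0.17 and did not pass. Without the 4 lines that stood apart, where 9.60% of all genes rose and 11.7% fell, 3 of the 30 assembly and import factors rose and 1 fell, 0 of 8 carriers passed, 1 of 16 citric acid cycle genes rose and 1 fell, and 1 of the 14 expression and biogenesis genes fell. Of the genes named here Cox14 (1.33) and Ppargc1a (-1.59, edgeR adjusted p = 0.00010) still passed, and Sdhaf1, Cox20, Ckmt1, Mdh2, Pdha1, Gabpa, Tfam and Esrra did not.

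Lars2, named for the mitochondrial leucyl-tRNA synthetase, varied from 8.30 to 13.7 log2 CPM over the lines. Its level had a rho of -0.45 with the library total. Whether all its counts come from the transcript of that enzyme was not tested. With more Lars2 10 of 90 genes rose, where 2.95% of all genes did, and 0 fell, where 3.60% of all did. All 10 were among the 64 of 90 that rose with the ribosomal protein genes, a share at which most of any 10 would overlap. BXD32 was the lowest line for both levels, and the overlap over all genes is not given here. The 5 smallest p-values belonged to Ndufa10 (slope 0.05 ± 0.011, edgeR adjusted p = 0.010), Ndufa11 (0.08 ± 0.021), Uqcrc1 (0.07 ± 0.020), Ndufb9 (0.07 ± 0.018) and Atp5b (0.06 ± 0.016). The calls rested on single lines: edgeR called 0 without BXD32, 0 without BXD43, 5 without BXD44 and 4 without BXD51. Of all genes 1.36%, 1.44%, 2.37% and 2.67% rose in those fits. Without all 4 it called 0, where 2.05% of all genes still rose, and the median slope of the 90 went from 0.04 to -0.007. Of the wider pathway 1 of 30 assembly and import factors rose with Lars2 over all lines, 3 of 16 citric acid cycle genes rose and 1 fell. Markers of other tissue moved with Lars2 too: 3 of 4 striatal markers rose, 3 of 5 choroid plexus markers fell, and 1 of 4 thalamic and 1 of 7 general neuronal markers fell. In the fit without the 4 lines 0 genes of these lists passed. The part of tissue composition in the slopes on Lars2 was not tested. DESeq2 called 16 over all lines, all rising, where 3.54% of all genes rose.

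The total count of a library was tested in the same way. Of the 90 genes 79 had a positive slope on the total, where 50.7% of all genes did. In edgeR 0 of the 90 passed, and 0% of all genes did. At an unadjusted p under 0.05 there were 18, where 11.4% of all genes were. DESeq2 called 1, Ndufa1, and 60 of all genes. Ndufa1, an X-linked complex I subunit, had a slope of 0.36 ± 0.088 (edgeR adjusted p = 0.13, DESeq2 adjusted p = 0.038). BXD51, with the largest library, was its highest line at 35.3 CPM, and BXD55, with the smallest, its lowest at 19.6 CPM.

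The study asked about hypothalamic Fgf15, which encodes a fibroblast growth factor. Over the 36 lines 70 of 90 genes had a positive slope on Fgf15, where 49.8% of all genes did. The median slope of the 90 was 0.02 log2 units per log2 unit of Fgf15. None passed: edgeR called 0 of 90, where it called 0.00631% of all genes, and DESeq2 called 0. At an unadjusted p under 0.05 there were 3, where 5.16% of all genes were. The 3 were isoforms of low level: Cox7b2 (-0.56 ± 0.17, edgeR adjusted p = 0.76), Cox4i2 (0.18 ± 0.075) and Cox6b2 (0.11 ± 0.047). Cox7b2 had a median of 0.345 CPM and ran from 0.0959 to 1.51 over the lines. The largest absolute slope on Fgf15 among the 90 was that of Cox7b2, and the median SE was 0.03.

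The BXD lines were compared with the 4 parental and hybrid strains, and the hybrids with the 38 inbred strains. In edgeR 0 of 90 genes differed in the first comparison, where 0% of all genes did, and DESeq2 called 0. At an unadjusted p under 0.05 there were 0, where 1.02% of all genes were. The median difference was -0.004 log2 units, and Ndufa12 was the farthest from 0 at 0.63. In the second comparison 0 of 90 differed, where 0% of all genes did, and DESeq2 called 0. At an unadjusted p under 0.05 there were 0, where 0.657% of all genes were. The median was 0.02 log2 units, and Ndufa12 was again farthest, at -0.54. The median SE was 0.11 log2 units with 2 hybrid libraries. Single genes had larger errors, and Ndufa12 did not pass at -0.54.

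The parents were 1 library each and were compared by size, with no test. Between C57BL/6J and DBA/2J 2 of 79 genes of at least 5 CPM differed by at least 0.5 log2 units, both higher in C57BL/6J, where 2.13% of all genes were, and 0 were higher in DBA/2J, where 0.863% of all were. They were Ndufa12 with a difference of 1.42 (counting SE 0.12, from 520 and 202 reads) and Cox7a2l with 0.59 (counting SE 0.051, from 1930 and 1345 reads). At 1 log2 unit only Ndufa12 was left in C57BL/6J (0.510% of all genes) and 0 in DBA/2J (0.140% of all). Just outside the first limit lay Cox5b with 0.49. The gene farthest toward DBA/2J was Atp5g1, with 16.5 CPM in C57BL/6J and 21.7 in DBA/2J (-0.40). The median absolute difference was 0.05 log2 units for the 79 genes and 0.08 for all genes.

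The reciprocal hybrids share their autosomes but take their mitochondria from different mothers. Of 80 genes 0 were higher in B6D2F1 by at least 0.5 log2 units, where 0.404% of all genes were, and 0 in D2B6F1, where 0.396% of all were. The extremes were Atp5g1, with 20.2 CPM in B6D2F1 and 14.4 in D2B6F1 (0.49), and Ndufaf6, with 6.75 and 8.63 (-0.35). Ndufb2 had 32 and 39.7 CPM (-0.31). The median difference of the 80 genes was 0.005 log2 units.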

How the data were processed

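Stranded mRNA libraries of hypothalamus RNA were sequenced as single reads, per the labels' protocols. The authors deposited a table of raw read counts for 23955 symbols and a normalized signal table for 15251 names. TopHat2 2.0.8, HTSeq 0.5.4p3 and DESeq were used with mm9, per the submitters' processing notes; their settings and the annotation are not given in the sources used here. Raw counts were analysed in R 4.3.3 with edgeR 4.0.16 (TMM scaling, filterByExpr, robust quasi-likelihood fit, Benjamini-Hochberg adjustment over all genes, threshold 0.05; log2 CPM with a prior count of 2). Alternatives were DESeq2 1.42.0, its size factors, no filter on low counts, the normalized table as log2(value + 1) in limma 3.58.1, and libraries left out. The fits were tested on simulated data. Transcript length, GC content and shared windows came from GRCm38, used for no coordinates of the counts, and 92 of 93 symbols matched. Genes were named by a rule: complex II, the highest and lowest per length in each class, the 10 most and 5 least variable, the 5 smallest adjusted p-values of each fit, tissue isoforms, genes past a size limit, and the 3 nearest in pattern; others named beside them were chosen with their values known. The genes, lists and tests were chosen with earlier results of these data known. Counting SEs and floors cover counting error only. The SEs of slopes and group differences came from the edgeR fit and also hold variation between libraries. Of the genes found by the rule, 1 is not reported here by name and is left out of the plots, though it is part of the counts and sums.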

Additional observations from a re-analysis of the deposited data

How the results depend on the processing

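No paired analysis was possible because the groups compared share fewer than 2 replicate numbers, with 1 library for every strain. Of the summary values recomputed, 344 stayed within their limits and 19 moved. The limits were wide. A count could change by a set factor, and a median by its SD over genes or pairs. A summed level could change by its SD over lines, and a count of 0 in both fits was scored as unchanged. The 19 single-gene values were mostly picked for small p-values. Recomputed under the alternatives, 514 kept their result, 22 lost a pass, 1 gained it and none changed direction. Among all 90 genes, which were refitted without the 4 lines named next, 12 slopes on the ribosomal protein genes and 45 on Lars2 changed sign, among them 1 that had passed, that of Ndufb4 on the ribosomal protein genes (0.63 and then -0.42). DESeq2 in place of edgeR gave 16 genes rising with Lars2, where 3.54% of all genes rose, and 1 with the library total. Leaving out 1 line at a time gave 0 to 15 genes rising with Lars2 and 329 to 1358 genes called in all, and 57 to 64 genes rising and 1 to 4 falling with the ribosomal protein genes. Of all genes 1.36% to 3.80% rose with Lars2 in these fits, and 17.4% to 24.2% with the ribosomal protein genes. Without BXD32, BXD43, BXD44 and BXD51 there were 0 genes rising with Lars2 and 469 called in all, and 29 rising and 0 falling with the ribosomal protein genes and 3424 called in all, against 7354 over all lines. With the myelin genes, no filter on low counts gave 1 gene rising and leaving out BXD32 gave 7, both without the share of all genes beside them. Where genes of 1 CPM were taken in, 1 gene differed between the hybrids by at least 0.5 log2 units. It was Cox7a1, with 21 reads in B6D2F1 and 41 in D2B6F1 (-0.62, counting SE 0.39), a difference within 2 counting SEs. The share of all genes at that limit is not given here. Other scalings left the median coefficient of variation between 10.6% and 11% and the median rho between 0.32 and 0.36. Removing lines also removes samples; beyond that the cause was not tested. Genes at a few CPM, such as Cox7a1, Cox7b2 and Atp5l, are limited by depth.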
